A study of Mus musculus with 9 samples.

Results

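The 38 genes described here encode complement proteins and clotting factors that the liver releases into plasma. They were chosen by symbol from the 28517 genes listed in the deposited table, with protease inhibitors of the serpin family left out, and all 38 passed the filter on low counts that left 18142 genes. RNA came from livers of db/db mice, which carry a defective leptin receptor and become obese and diabetic, after 12 weeks of FGF19ΔKLB, FGF19WT or PBS vehicle. All 3 groups share the db/db genotype, and each holds 3 libraries. FGF19 is a gut hormone that lowers bile acid synthesis in hepatocytes through FGFR4 and the co-receptor β-klotho (Klb). The title of the study names a lowered tumour risk through weaker pairing of FGF receptors as its subject. The labels give neither the sequence change in FGF19ΔKLB nor the age and sex of the mice. They do not say whether the libraries of a group come from separate animals, so p-values measure the spread between these samples, which may be technical. Levels are CPM, counts scaled to each library's total and its TMM factor, and comparisons between genes use FPKM, which also divides by transcript length.

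Complement is a chain of plasma proteases and pore proteins that marks and lyses microbes. It starts from antibody-bound C1 with its proteases C1r and C1s, from mannose-binding lectins with the MASP proteases, or from factor B on surfaces. All 3 routes cleave C3 and then C5. The terminal proteins C6, C8 and C9 then build a pore in the membrane. Clotting ends when thrombin turns fibrinogen into fibrin, and plasmin from plasminogen dissolves the clot. Hepatocytes make most of these proteins, and several of them, fibrinogen and C3 among them, are acute phase proteins whose synthesis rises under interleukin-6.

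Total counts were 65.1 to 73.3 M per library, and every one of the 38 genes had at least 154 counts in every library. Among the FGF19WT libraries, 2 and 3 differed from library 1 in their cell markers. Hepatocyte markers (12 of 13 listed were measured) summed to 125000 and 138000 CPM in these libraries and to 127000 to 334000 CPM in the other 7. Albumin, a large part of these sums, took 9.14% and 8.67% of all counts there and 8.6% to 21.1% in the other 7. Periportal markers, 12 of 12 measured, summed to 285 and 309 CPM there and to 8240 to 12200 CPM in the other 7. Pericentral markers, 13 of 13, summed to 34200 and 30300 CPM there and to 2120 to 9200 CPM in the other 7. Kupffer cell markers, 14 of 14, summed to 157 and 57.8 CPM there and to 287 to 514 CPM in the other 7. None of the listed markers was at 0 in all 9 libraries. The tissue was not sorted, so fewer cells of a type and less RNA per cell cannot be told apart. TMM factors ranged 0.848 to 0.968 with FGF19ΔKLB, 0.968 to 1.16 with FGF19WT and 0.994 to 1.08 in vehicle. Scaling by library totals instead moved the median log2 fold change of all genes to −0.17 for FGF19ΔKLB against vehicle and to −0.20 for FGF19ΔKLB against FGF19WT. Changes below are relative to a median near 0 under TMM.

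Many of these genes are neighbours in the genome (deposited positions, which match GENCODE M21 on GRCm38 for 37 of 38 genes, C8a ending at another base). The fibrinogen genes Fgg, Fga and Fgb lie on chromosome 3 between 83007724 and 83049863, with gaps of 11027 and 6514 bases and no listed gene between them. F7 and F10 lie 1499 bases apart on chromosome 8. F11 and Klkb1 lie 4658 bases apart on the same chromosome. Kng2 and Kng1 on chromosome 16, C8b and C8a on chromosome 4, C1ra and C1s1 on chromosome 6, and Cfb and C2 on chromosome 17 are further pairs within 100 kb. Promoter sequences were found for 30 of the 38 genes in RefSeq (GRCm38.p6). The 250 bases before the RefSeq start are shown for the fibrinogen chains, which varied together, for F7 and Mbl1, called below, and for C9, the gene furthest below vehicle. The window of Kng2, the other called gene, holds a C/EBP match but lies inside the deposited Kng2 gene, and is not shown for that reason. Capitals mark exact matches on either strand to a HNF1 motif (GTTAAT), a C/EBP motif (TTGCNNAA) or a STAT3 motif (TTCNNNGAA), none of which overlap here. The windows are chr3:83025903-83026152, plus strand for Fga, chr3:83049864-83050113, minus strand for Fgb, chr3:83007474-83007723, plus strand for Fgg, chr8:13025784-13026033, plus strand for F7, chr14:41151206-41151455, plus strand for Mbl1 and chr15:6445096-6445345, plus strand for C9.
Fga: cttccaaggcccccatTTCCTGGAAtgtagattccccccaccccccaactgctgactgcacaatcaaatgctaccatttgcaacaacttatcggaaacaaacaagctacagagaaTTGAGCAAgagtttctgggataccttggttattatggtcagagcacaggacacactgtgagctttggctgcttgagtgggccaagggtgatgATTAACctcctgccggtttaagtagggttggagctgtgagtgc
Fgb: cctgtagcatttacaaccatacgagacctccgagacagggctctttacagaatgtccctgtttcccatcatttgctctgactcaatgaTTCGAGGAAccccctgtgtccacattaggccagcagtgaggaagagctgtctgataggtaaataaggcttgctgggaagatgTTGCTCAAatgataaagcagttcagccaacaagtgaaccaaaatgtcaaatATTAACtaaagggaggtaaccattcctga
Fgg: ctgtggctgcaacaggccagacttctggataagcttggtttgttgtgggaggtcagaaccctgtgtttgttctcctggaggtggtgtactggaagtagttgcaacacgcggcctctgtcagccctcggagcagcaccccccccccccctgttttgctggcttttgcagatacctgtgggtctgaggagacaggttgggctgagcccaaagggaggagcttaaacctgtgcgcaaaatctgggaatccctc
F7: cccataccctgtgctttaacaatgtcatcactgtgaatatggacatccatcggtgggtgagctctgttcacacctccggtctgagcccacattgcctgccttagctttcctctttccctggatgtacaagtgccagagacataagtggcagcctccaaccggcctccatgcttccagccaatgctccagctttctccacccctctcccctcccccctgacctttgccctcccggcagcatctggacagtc
Mbl1: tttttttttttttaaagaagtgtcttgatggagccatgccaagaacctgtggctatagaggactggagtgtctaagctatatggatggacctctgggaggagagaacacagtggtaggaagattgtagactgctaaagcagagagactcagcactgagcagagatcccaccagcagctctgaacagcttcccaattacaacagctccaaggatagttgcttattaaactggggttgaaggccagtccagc
C9: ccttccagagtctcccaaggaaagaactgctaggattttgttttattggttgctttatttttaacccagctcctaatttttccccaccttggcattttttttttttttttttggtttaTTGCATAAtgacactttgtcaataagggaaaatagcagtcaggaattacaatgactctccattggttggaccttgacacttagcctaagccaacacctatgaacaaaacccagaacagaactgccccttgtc

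Fga and Fgb each held all 3 motifs, and they were the only ones of the 30 promoters to do so, against 23 of 32536 distinct promoters in the table (0.0707%). In Fga the HNF1, C/EBP and STAT3 matches began 43, 135 and 234 bases before the start, and in Fgb 29, 80 and 162 bases before it. Fgg, F7 and Mbl1 held none of these letters in the window, and C9 held a C/EBP match 132 bases before its start. A HNF1 motif was found in 9 of 30 promoters (30.0%, against 6.47% of all promoters), a C/EBP motif in 10 (33.3%, against 9.57%) and a STAT3 motif in 6 (20.0%, against 7.04%). A TATA box (TATAAA) was found in 3 of 30 (10%, against 12.3%), and the HNF4 letters CAAAGTCCA in 0 of 30 (0.387% of all promoters). The RefSeq start lay 77 bases downstream of the deposited gene start in Fga, 19 in C9 and at the same base in Fgb, Fgg and F7. The HNF1 match of Fga therefore lies inside the deposited gene. Kng2, whose window also does, is counted among the 10 promoters with a C/EBP motif.

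Per length, the 38 genes spanned a wide range in vehicle livers. C3, the protein on which all routes of complement converge, had the highest mean, 1481 ± 445 FPKM (SD, n = 3). The 3 fibrinogen chains followed with 1370.4 ± 639 FPKM for Fgg, 1266 ± 535 FPKM for Fgb and 1247 ± 482 FPKM for Fga. The spreads of these 4 genes overlapped. Within each vehicle library C3 was above Fgb and Fga, but it was below Fgg in vehicle library 3. Next came vitronectin (Vtn, 923 ± 99.5 FPKM), kininogen (Kng1, 757 ± 210.0 FPKM) and plasminogen (Plg, 649.6 ± 111 FPKM). The spread of Kng1 overlapped both of the others, while Vtn lay above Plg in all vehicle libraries. Within each vehicle library Vtn was above Kng1 and Kng1 above Plg. The lowest were Masp1 (12.7 ± 0.815 FPKM), Pros1 (11.3 ± 2.71 FPKM) and C6 (4.55 ± 1.29 FPKM). Together the 38 genes took 4.45%, 5.55% and 4.77% of all counts with FGF19ΔKLB, 4.17%, 2.01% and 1.88% with FGF19WT, and 3.46%, 3.68% and 5.45% in vehicle. The fibrinogen chains alone took 1.32%, 2.18% and 1.49% with FGF19ΔKLB, 1.14%, 0.304% and 0.225% with FGF19WT, and 0.985%, 0.904% and 1.86% in vehicle. FGF19WT libraries 2 and 3 held the lowest shares in both cases.

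Most of the 38 genes were low in FGF19WT libraries 2 and 3. In these libraries 28 of 38 genes (73.7%) lay below all other 7 libraries, where 19% of all genes did, and only F5 lay above all 7 (2.63%, where 18.4% of all genes did). The count below was 24 of 38 with scaling by library totals and 26 of 38 in FPKM. The median distance of the 38 genes from the vehicle mean was −0.78 and −0.64 log2 units in FGF19WT libraries 2 and 3, and 0.12 in FGF19WT library 1. In the FGF19ΔKLB libraries it was 0.18, 0.26 and 0.32, and in the vehicle libraries −0.15, −0.01 and 0.16. The median of all genes stayed between −0.03 and 0.01 in each of the 9 libraries on this scale. These 2 libraries are also the ones low in periportal and high in pericentral markers (values above), whose part in the members' levels was not tested.

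**Figure D1:**
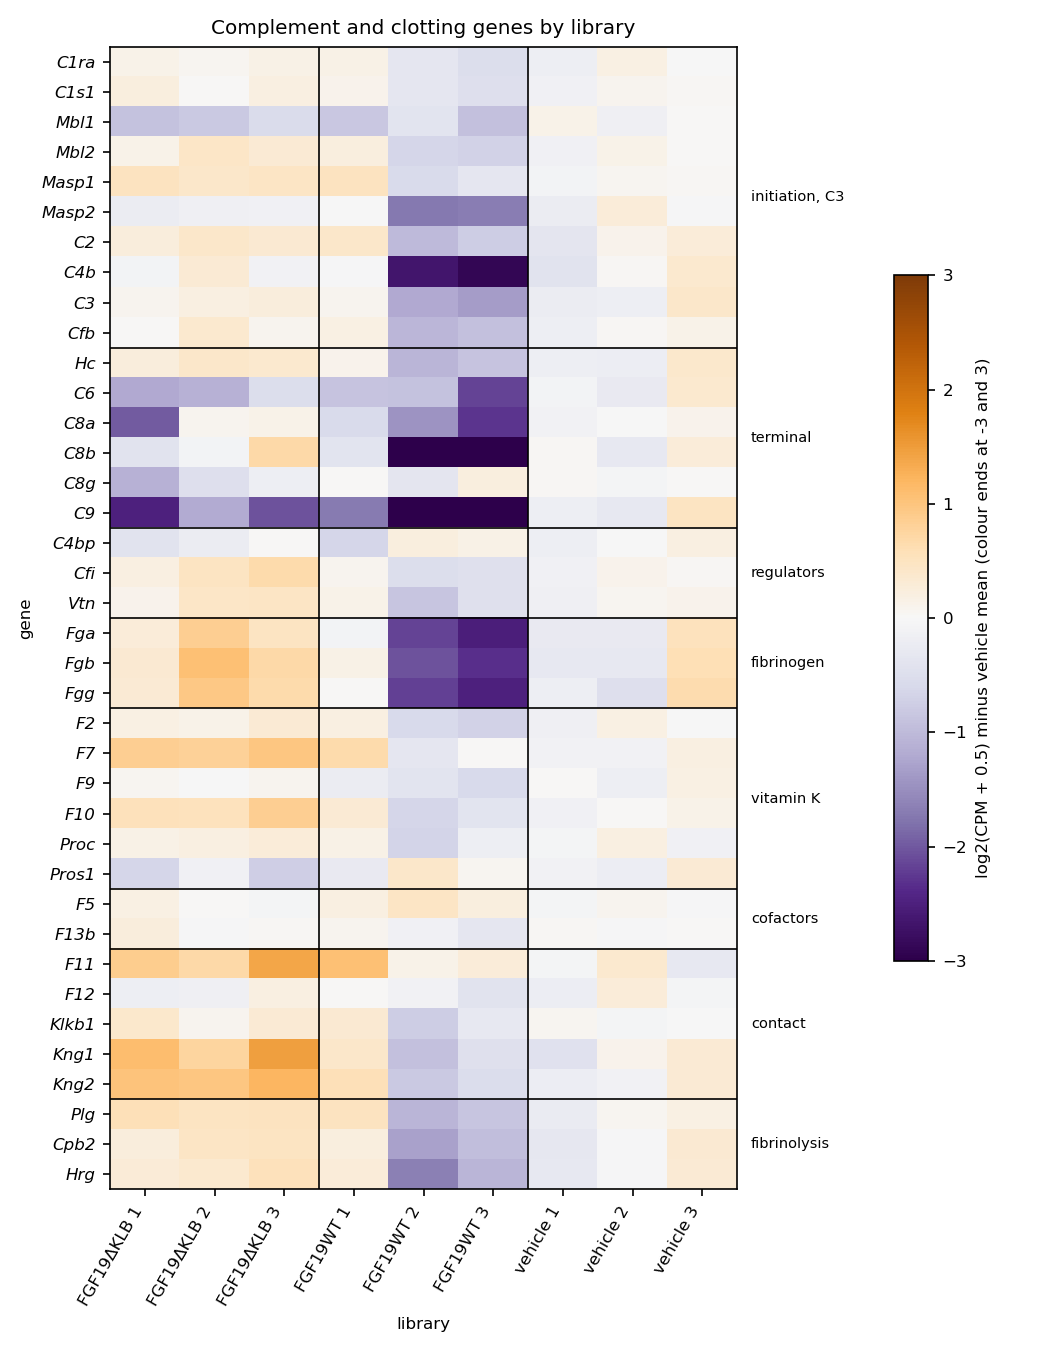
Level of each of the 38 genes (rows, grouped by role) in each library (columns), as log2(CPM + 0.5) minus the mean of the 3 vehicle libraries, with purple lower and orange higher. The columns of FGF19WT libraries 2 and 3 are purple in most rows, while C9, C6 and Mbl1 are purple in all 6 FGF19ΔKLB and FGF19WT libraries.

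**Figure D2:**
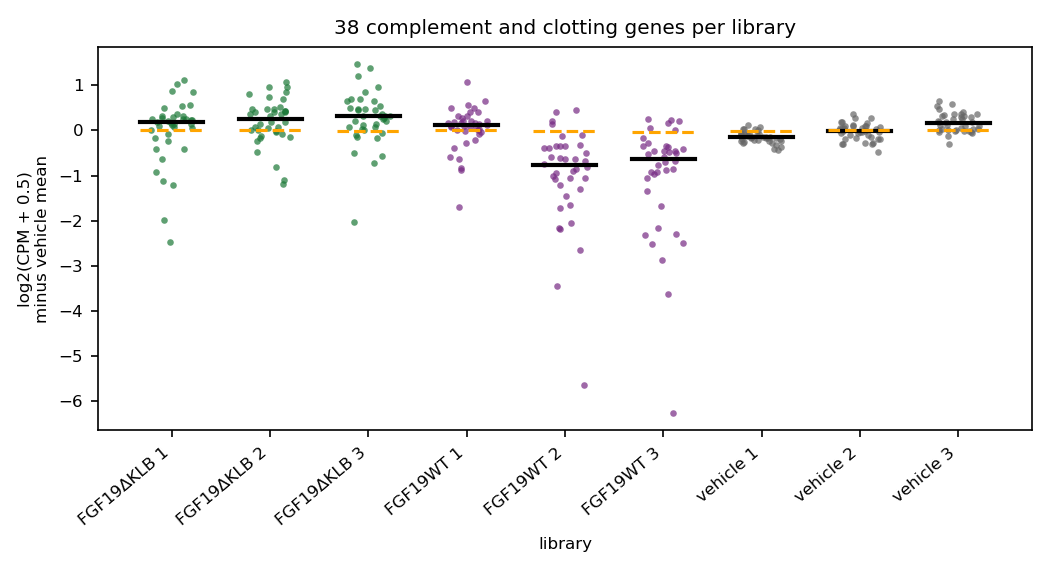
The same values with 1 point per gene and library. Black bars are the medians of the 38 genes and dashed orange bars the medians of all 18142 genes tested, and the black bars stand at −0.78 and −0.64 in FGF19WT libraries 2 and 3.

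The comparison of FGF19ΔKLB with vehicle asks what the variant changed. Over all 9 libraries, 29 of 38 genes (76.3%) were higher with FGF19ΔKLB, against 50.2% of all genes, with a median log2 fold change of 0.21, against a median near 0 for all genes. The count itself depends on the scaling. With library totals 20 of 38 genes were higher, where 32.8% of all genes were, with a median of 0.03, against −0.17 for all genes. Relative to all genes, the 38 genes were thus shifted upwards. A change of scaling moves all genes of a library alike, so the similar shift with library totals is no separate support. In edgeR's quasi-likelihood test 0 of 38 genes were called at an adjusted p under 0.05, where 0.011% of all genes were, and 7 of 38 (18.4%) had an unadjusted p under 0.05, against 8.35% of all genes. The error of that fit takes in the spread of the FGF19WT libraries. Fitted to the 6 libraries of the 2 groups, 3 of 38 genes (7.89%) were called, F7 and Kng2 as higher and Mbl1 as lower, where 1.68% of all genes were called, and 13 of 38 (34.2%) had an unadjusted p under 0.05, against 17.3%. With 1 library left out of that fit the count ranged 0 to 3, and it was 0 without vehicle library 1 or 2 and without FGF19ΔKLB library 1 or 3. It was also 0 with a replicate block, where 0.594% of all genes were called. It was 1 with library totals, Mbl1 (2.63%, where 1.97% of all genes were called), and 10 with DESeq2 (26.3%, where 7.95% were). DESeq2 called 1 of 38 over 9 libraries, Mbl1, where 2.04% of all genes were called. All 3 FGF19ΔKLB libraries lay above all vehicle libraries for 11 of 38 genes (28.9%, where 12.4% of all genes did) and below them for 4 of 38 (10.5%, where 12.2% did). The genes above were Cfi, F10, F11, F7, Klkb1, Kng1, Kng2, Masp1, Mbl2, Plg and Vtn, and those below C6, C8g, C9 and Mbl1. With library totals as many lay above as below, 6 above (15.8%, where 5.85% of all genes were) and 6 below (15.8%, where 20.7% were). The share above still exceeded that of all genes. The 6 above were F10, F11, F7, Kng1, Kng2 and Masp1, and the 6 below were C4bp, C6, C8g, C9, Masp2 and Mbl1. FPKM gave the same genes. Hepatocyte markers summed to 237000 to 334000 CPM with FGF19ΔKLB and to 127000 to 194000 CPM in vehicle, with 8 of 12 higher. Albumin is a large part of these sums. It alone took 16.3% to 21.1% of all counts with FGF19ΔKLB and 8.6% to 13.5% in vehicle. Pericentral markers summed to 2120 to 3670 CPM with FGF19ΔKLB and to 5180 to 9200 CPM in vehicle, with 13 of 13 lower and 3 called over the 6 libraries. Stellate cell markers summed to 154 to 305 CPM with FGF19ΔKLB and to 400.0 to 462 CPM in vehicle, with 10 of 11 lower. Endothelial markers summed to 112 to 175 CPM and 199 to 241 CPM in these groups, with 13 of 13 lower, and B cell markers to 31.8 to 70.4 CPM and 103 to 247 CPM, with 8 of 9 lower. The part of these in the members' levels was not tested.

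**Figure D3:**
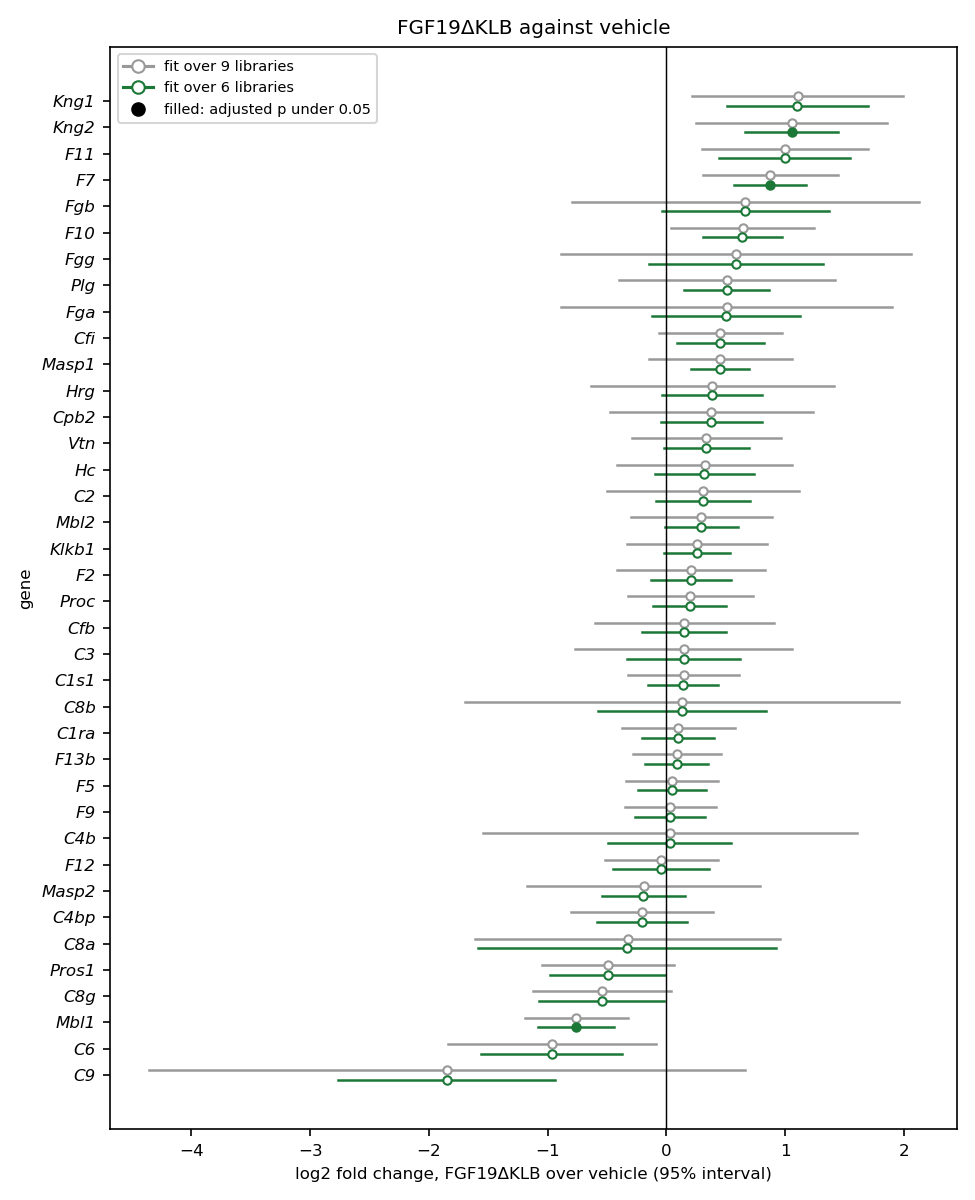
Log2 fold change of FGF19ΔKLB over vehicle with its 95% interval for each gene, in the fit over 9 libraries (grey) and over the 6 libraries of both groups (green), with filled points for an adjusted p under 0.05. F7 and Kng2 on the high side and Mbl1 on the low side are filled, each in the fit over 6 libraries only.

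For the unmodified hormone, FGF19WT was compared with vehicle. Here 34 of 38 genes were lower with FGF19WT and 4 (10.5%) higher, where 49.6% of all genes were higher. The median log2 fold change was −0.31, against a median near 0 for all genes. In edgeR over 9 libraries 0 of 38 genes were called, where 0.11% of all genes were, and over the 6 libraries 0 of 38, where 0.00574% were. Unadjusted p-values under 0.05 were found for 4 of 38 genes (10.5%) in either fit, against 18.8% of all genes over 9 libraries and 14.5% over 6, while DESeq2 called 2 of 38, C6 and Mbl1 (5.26%, where 9.61% of all genes were called). All 3 FGF19WT libraries lay below all vehicle libraries for 6 of 38 genes, C6, C8a, C8b, C9, F9 and Mbl1 (15.8%, where 11.6% of all genes did), and above them for F5 alone (2.63%, where 11% did). The direction rests on FGF19WT libraries 2 and 3. Without both, 26 of 38 genes were higher with FGF19WT and the median was 0.097, with the lone library assumed to vary like the other groups. Without FGF19WT library 1, 23 of 38 genes were called (60.5%, where 27.4% of all genes were).

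The comparison of FGF19ΔKLB with FGF19WT sets the variant against the natural hormone. Of the 38 genes 33 (86.8%) were higher with FGF19ΔKLB, against 50.9% of all genes, with a median log2 fold change of 0.67, against 0.01 for all genes. With edgeR 0 of 38 genes were called over 9 libraries, where 0.0% of all genes were, and 0 of 38 over the 6 libraries, where 0.00584% were. Unadjusted p-values under 0.05 were found for 14 of 38 genes over 9 libraries (36.8%, against 12.5% of all genes) and for 8 of 38 over 6 libraries (21.1%, against 8.8%). DESeq2 called 3 of 38, Cfi, Kng1 and Kng2 (7.89%, where 4.6% of all genes were called). All 3 FGF19ΔKLB libraries lay above all FGF19WT libraries for 12 of 38 genes (31.6%, where 7.15% of all genes did) and below them for F5 alone (2.63%, where 6.39% did). The 12 were Cfi, Cpb2, F10, F7, F9, Fga, Fgb, Fgg, Hc, Hrg, Kng1 and Kng2, of which Cpb2 and Hrg overlapped with library totals and in FPKM. On those scales C8g joined F5 below FGF19WT. With library totals that made 10 genes above (26.3%, where 3.68% of all genes were) and 2 below (5.26%, where 11.9% were). Without FGF19WT libraries 2 and 3 the median was 0.082, with 25 of 38 genes higher. Without FGF19WT library 1, 28 of 38 genes were called (73.7%, where 20.2% of all genes were). The 3 comparisons share samples, so they are not independent of each other.

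Among the 10 genes that start complement and build the C3 convertase, 8 were higher with FGF19ΔKLB than in vehicle under TMM scaling. The median log2 fold change of the 10 was 0.15. In FPKM, the FGF19ΔKLB means of C1ra, C1s1, C4b, C3 and Cfb were instead below those of vehicle. All 10 were lower with FGF19WT than in vehicle, with a median of −0.42. Mbl1, one of the 2 mannose-binding lectins of mice, was lower with FGF19ΔKLB on each scale. It had 101, 109 and 129 CPM with FGF19ΔKLB, 106, 145 and 101 CPM with FGF19WT and 207, 172 and 193 CPM in vehicle. Each of the 6 libraries from FGF19-treated mice was below each vehicle library, which held for 3 of 38 genes (Mbl1, C6 and C9, 7.89%, where 5.35% of all genes did), while 0 of 38 were above in all 6 (where 4.93% did). Mbl1 fell with FGF19ΔKLB over the 6 libraries (log2 fold change −0.76, 95% interval −1.08 to −0.44, adjusted p = 0.0463, edgeR), where its adjusted p ranged 0.000223 to 0.153 over 15 alternatives and was under 0.05 in 8. Over 9 libraries its adjusted p was 0.303 for FGF19ΔKLB and 0.133 for FGF19WT against vehicle (−0.7, SE 0.19), and 0.926 between both forms (−0.05, 95% interval −0.49 to 0.38). Its relative Mbl2 had 301, 369 and 343 CPM with FGF19ΔKLB, 319, 176 and 171 CPM with FGF19WT and 249.8, 299 and 277 CPM in vehicle. The ratio of Mbl2 to Mbl1 in FPKM was 4.31, 4.89 and 3.84 with FGF19ΔKLB, 4.34, 1.76 and 2.45 with FGF19WT, and 1.74, 2.5 and 2.07 in vehicle. FGF19WT library 1 thus lay among the FGF19ΔKLB libraries in this ratio, and FGF19WT libraries 2 and 3 among the vehicle ones.

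C3 had 8224, 8982 and 9347 CPM with FGF19ΔKLB, 8237, 3389 and 3068 CPM with FGF19WT and 6682, 6927 and 10369.8 CPM in vehicle. Apart from FGF19WT libraries 2 and 3, the groups overlapped. C4b, the precursor of the C4 part of the convertase, was low in the same libraries by a larger margin, with 1425, 1874 and 1399 CPM with FGF19ΔKLB, 1462, 237 and 202 CPM with FGF19WT and 1131, 1534 and 1938 CPM in vehicle. Its near copy C4a shares 95.9% of bases over 5378 aligned transcript bases and averaged 6.18 FPKM over 9 libraries, against 197 FPKM for C4b, so how the authors' counting split shared reads could change the C4b level. Factor B (Cfb), the protease of the alternative route, had 1121, 1414 and 1161 CPM with FGF19ΔKLB, 1243, 535 and 580.0 CPM with FGF19WT and 976, 1139.6 and 1209 CPM in vehicle. C2, the protease that pairs with C4, had 146, 164 and 154 CPM with FGF19ΔKLB, 162, 60.7 and 72.2 CPM with FGF19WT and 95.4, 131 and 147 CPM in vehicle. In each of these 4 genes only FGF19WT libraries 2 and 3 separated from the rest.

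The lectin pathway proteases differed from each other. Masp1 had 187, 176 and 181 CPM with FGF19ΔKLB, 187, 88.4 and 104 CPM with FGF19WT and 125, 137 and 135 CPM in vehicle, so all FGF19ΔKLB libraries and FGF19WT library 1 were above vehicle. Masp2, which cleaves C4 and C2, had 183, 191 and 194 CPM with FGF19ΔKLB, 211, 64.2 and 66.9 CPM with FGF19WT and 182, 258 and 208 CPM in vehicle, with FGF19ΔKLB inside the vehicle range under TMM scaling. With library totals and in FPKM all FGF19ΔKLB libraries of Masp2 were below vehicle. Masp2 overlaps Tardbp on the opposite strand, and strand use in counting is not given in the sources used here. The C1 proteases varied least of these 10 genes, C1ra from 163 to 262 CPM and C1s1 from 416 to 673 CPM over the 9 libraries. Both have near copies, C1rb and C1s2, with 97.9% and 95.9% identical bases over 2431 and 2643 aligned bases, so their levels are uncertain to that extent. The ratio of C1s1 to C1ra in FPKM stayed between 2.22 and 2.55 in all 9 libraries.

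The terminal genes were the role with the lowest median against vehicle, −0.44 with FGF19ΔKLB and −1.29 with FGF19WT. C9, which polymerises into the pore, had 37.3, 92.7 and 50.9 CPM with FGF19ΔKLB, 65, 3.71 and 2.23 CPM with FGF19WT and 188, 171 and 293 CPM in vehicle. All 6 libraries from FGF19-treated mice were below the lowest vehicle library, and FGF19WT libraries 2 and 3 were far below the other 4. C9 had the lowest log2 fold change of the 38 genes in both comparisons with vehicle, 3.6-fold lower with FGF19ΔKLB (log2 fold change −1.85, 95% interval −4.36 to 0.66, adjusted p = 0.73) and 9.19-fold lower with FGF19WT (log2 fold change −3.2, 95% interval −5.85 to −0.55, adjusted p = 0.197), and neither passed the test over 9 libraries. Over the 6 libraries its adjusted p was 0.0737 for FGF19ΔKLB (95% interval −2.77 to −0.93) and 0.339 for FGF19WT. C6, which joins C5b on the membrane, had 6.92, 7.49 and 11.7 CPM with FGF19ΔKLB, 8.81, 8.7 and 3.34 CPM with FGF19WT and 15.7, 13.7 and 21.6 CPM in vehicle, again with no overlap between FGF19-treated and vehicle libraries. Its log2 fold change was −0.96 (SE 0.39, adjusted p = 0.558) with FGF19ΔKLB and −1.29 (SE 0.39, adjusted p = 0.149) with FGF19WT over 9 libraries. Hc, which encodes C5, the protein cleaved to C5b, had 663, 739 and 716 CPM with FGF19ΔKLB, 594, 266 and 300.1 CPM with FGF19WT and 488, 486 and 721 CPM in vehicle. It overlapped vehicle in both comparisons, with FGF19WT libraries 2 and 3 the lowest of the 9.

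The 3 chains of C8, which form 1 protein, did not vary together. C8b had 88.2, 111 and 191 CPM with FGF19ΔKLB, 89.2, 10.3 and 8.93 CPM with FGF19WT and 119.6, 95.1 and 141 CPM in vehicle. C8a had 88.5, 372 and 385 CPM with FGF19ΔKLB, 235, 129 and 71.8 CPM with FGF19WT and 329.8, 353 and 379 CPM in vehicle, so FGF19ΔKLB library 1 lay far below its group. C8g had 97.3, 152 and 188 CPM with FGF19ΔKLB, 213, 166 and 247 CPM with FGF19WT and 216, 205 and 215 CPM in vehicle, with FGF19WT library 3 the highest of the 9. Against vehicle, C8b and C8a had log2 fold changes of −1.71 (SE 0.82, adjusted p = 0.302) and −1.28 (SE 0.57, adjusted p = 0.27) with FGF19WT, and C8g one of −0.54 (SE 0.26, adjusted p = 0.634) with FGF19ΔKLB. Against FGF19WT, C8b had the highest log2 fold change of the 38 genes, 1.85 (SE 0.83, adjusted p = 0.411), while C8g stood at −0.52 (SE 0.26, adjusted p = 0.442), and neither passed the test. The ratio of C8g to C8b in FPKM was 1.88, 2.33 and 1.68 with FGF19ΔKLB, 4.07, 27.5 and 47.2 with FGF19WT, and 3.08, 3.67 and 2.6 in vehicle. C8b and C8a are neighbours on opposite strands of chromosome 4, 11131 bases apart, while C8g lies on chromosome 2 and overlaps Fbxw5 on the opposite strand.

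**Figure D4:**
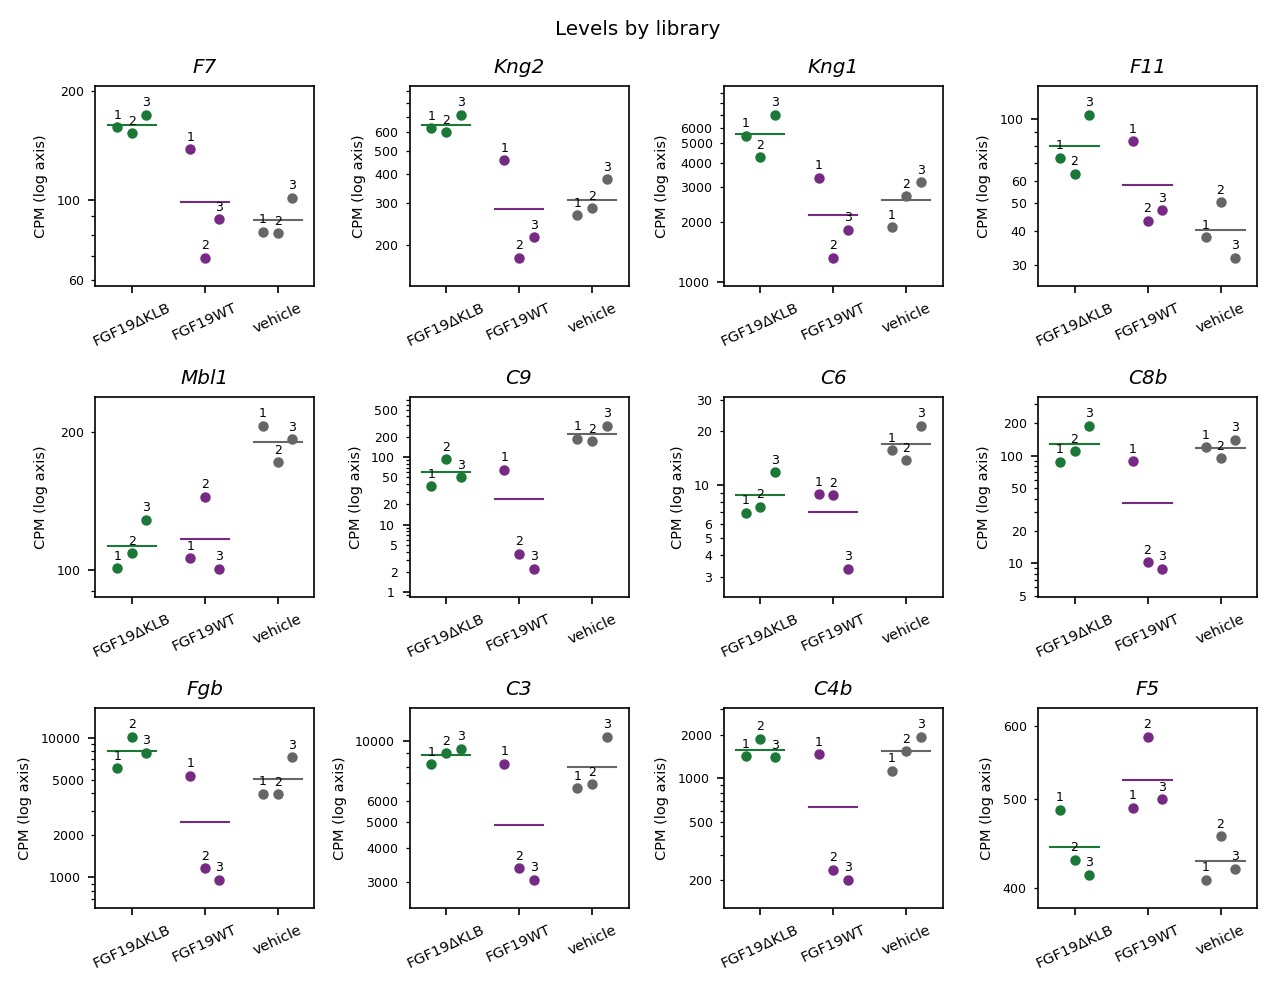
CPM of 12 of the genes in each library (points, numbered by replicate, on a log axis), with bars at the group means and the groups ordered FGF19ΔKLB, FGF19WT and vehicle. F7 and Kng2 are higher in all FGF19ΔKLB libraries than in vehicle, Mbl1, C9 and C6 are lower in all 6 libraries from FGF19-treated mice, and Fgb, C3, C4b and C8b are low in FGF19WT libraries 2 and 3 only.

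Of the 3 plasma regulators, complement factor I (Cfi), which cuts C3b and C4b, had 853, 1026 and 1176 CPM with FGF19ΔKLB, 785, 525 and 544 CPM with FGF19WT and 672, 796 and 759 CPM in vehicle. All FGF19ΔKLB libraries were above both other groups, but overlapped vehicle with library totals and in FPKM. Vitronectin (Vtn), which keeps terminal complexes off membranes, had 2125, 2649.6 and 2722 CPM with FGF19ΔKLB, 2148, 1097 and 1438 CPM with FGF19WT and 1784, 2041 and 2106 CPM in vehicle. C4bp, a cofactor of factor I, went against both, with 474, 541 and 642 CPM with FGF19ΔKLB, 408, 735 and 706 CPM with FGF19WT and 560.2, 625 and 723 CPM in vehicle. Its log2 fold change of FGF19ΔKLB over FGF19WT was −0.16 (SE 0.26, adjusted p = 0.825).

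The fibrinogen chains kept 1 pattern. Fgb had 6072, 10158 and 7784 CPM with FGF19ΔKLB, 5346, 1159 and 964 CPM with FGF19WT and 3960.0, 3917 and 7253 CPM in vehicle. Fga had 4589, 6867 and 5296 CPM with FGF19ΔKLB, 3583, 839 and 657 CPM with FGF19WT and 3164, 3139 and 5487 CPM in vehicle. Fgg had 3514, 5499 and 4468 CPM with FGF19ΔKLB, 2858, 618 and 502 CPM with FGF19WT and 2509, 2042 and 4433 CPM in vehicle. All FGF19ΔKLB libraries were above all FGF19WT libraries for each chain, and vehicle library 3 lay within the FGF19ΔKLB range. Against FGF19WT the chains were 3.22-fold, 3.3-fold and 3.39-fold higher for Fgb, Fga and Fgg, with log2 fold changes of 1.68 (SE 0.65, adjusted p = 0.351), 1.72 (SE 0.63, adjusted p = 0.33) and 1.76 (SE 0.66, adjusted p = 0.339). Without FGF19WT library 1 all 3 chains were called, and FGF19WT libraries 2 and 3 alone carry the low mean of that group. Against vehicle the median of the chains was 0.59 with FGF19ΔKLB and −1.18 with FGF19WT. In FPKM the ratio of Fga to Fgb stayed between 0.849 and 1.01 and that of Fgg to Fgb between 0.948 and 1.15 in all 9 libraries. Only Fga and Fgb carry the 3 capitalised motifs printed above, and Fgg carries none of them.

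**Figure D5:**
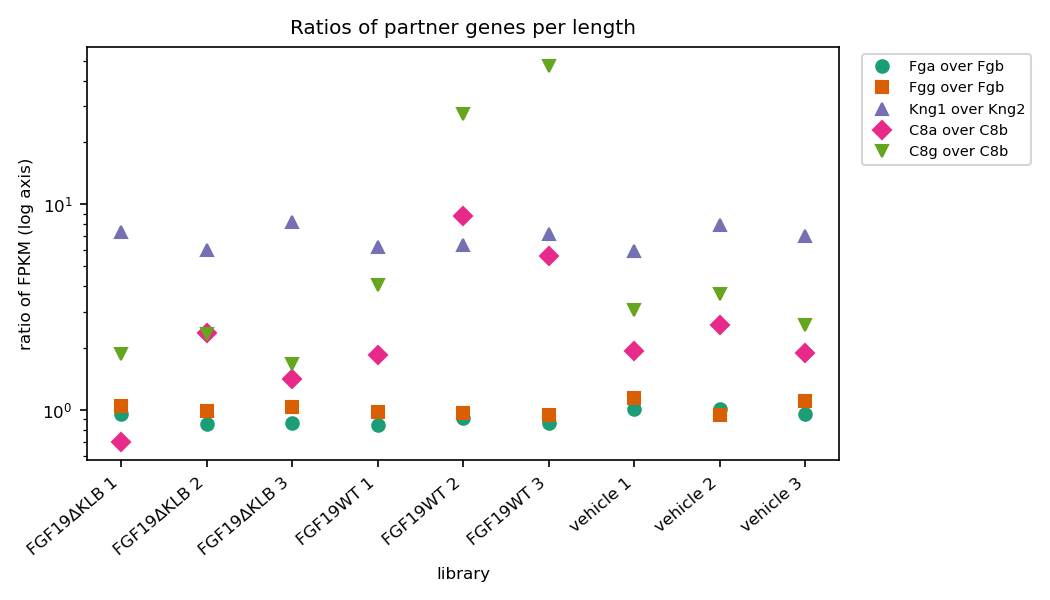
Ratios of FPKM between partner genes in each library, on a log axis. Fga and Fgg stay close to Fgb in all 9 libraries and Kng1 stays 5.96 to 8.25 times Kng2, while C8a and C8g are highest relative to C8b in FGF19WT libraries 2 and 3.

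Of the 6 vitamin K dependent genes, 5 were higher with FGF19ΔKLB than in vehicle under TMM scaling, with a median log2 fold change of 0.21. In FPKM, the FGF19ΔKLB mean of F9 was below that of vehicle. F7 encodes factor VII, which starts clotting once it meets tissue factor. It had 159, 153 and 172 CPM with FGF19ΔKLB, 138, 69.2 and 88.2 CPM with FGF19WT and 81.5, 80.9 and 101 CPM in vehicle. Every FGF19ΔKLB library was above every library of the other groups, and FGF19WT library 1 was above vehicle. F7 rose 1.83-fold with FGF19ΔKLB over the 6 libraries (log2 fold change 0.87, 95% interval 0.57 to 1.17, adjusted p = 0.028, edgeR), with an adjusted p of 3.48e-06 to 0.111 over 15 alternatives, under 0.05 in 9, and of 0.0583 with library totals. Over 9 libraries it stood at 0.87 (SE 0.25, adjusted p = 0.384) against vehicle and 0.71 (SE 0.25, adjusted p = 0.315) against FGF19WT, and with FGF19WT at 0.16 (SE 0.25, adjusted p = 0.736) against vehicle. F10, its neighbour on chromosome 8 and the protease that makes thrombin, had 590.2, 576 and 724 CPM with FGF19ΔKLB, 503, 258 and 309.8 CPM with FGF19WT and 365, 408 and 437 CPM in vehicle. All FGF19ΔKLB libraries were above both other groups, as for F7, while the FGF19WT mean lay below that of vehicle. Its adjusted p was 0.578 over 9 libraries and 0.0743 over 6 against vehicle. The ratio of F10 to F7 in FPKM was 2.53, 2.57 and 2.86 with FGF19ΔKLB, 2.48, 2.54 and 2.39 with FGF19WT, and 3.05, 3.43 and 2.94 in vehicle.

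Prothrombin (F2) had 2136, 2086 and 2381 CPM with FGF19ΔKLB, 2179, 1246 and 1171 CPM with FGF19WT and 1709, 2133 and 1872 CPM in vehicle. Factor IX (F9), the protease absent in haemophilia B, had 222, 209.6 and 224 CPM with FGF19ΔKLB, 183, 161 and 141 CPM with FGF19WT and 213, 187 and 241 CPM in vehicle, so FGF19WT was below both other groups in every library, but overlapped vehicle with library totals. Of the anticoagulants, protein C (Proc) had 503, 519.6 and 551 CPM with FGF19ΔKLB, 507, 286 and 404 CPM with FGF19WT and 433, 519 and 416 CPM in vehicle. Its cofactor protein S (Pros1) ran against the other vitamin K dependent genes, with 30.6, 44.2 and 28.8 CPM with FGF19ΔKLB, 39.6, 64 and 50 CPM with FGF19WT and 44.4, 41.8 and 59.5 CPM in vehicle. Pros1 had the lowest log2 fold change of the 38 genes in FGF19ΔKLB against FGF19WT, −0.57 (SE 0.24, adjusted p = 0.389), and stood at 0.08 (SE 0.24, adjusted p = 0.882) with FGF19WT against vehicle. The groups overlapped in both.

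Factor V (F5), the cofactor of factor X, was the only gene higher with FGF19WT than in both other groups in every library, with 487, 429 and 414 CPM with FGF19ΔKLB, 489, 585 and 499.5 CPM with FGF19WT and 408, 456 and 419.8 CPM in vehicle. The margin was small, 489 CPM in the lowest FGF19WT library against 487 CPM in the highest FGF19ΔKLB library. Its log2 fold change was 0.29 (SE 0.17, adjusted p = 0.372) for FGF19WT over vehicle and −0.24 (SE 0.17, adjusted p = 0.581) for FGF19ΔKLB over FGF19WT. F13b, the carrier of the enzyme that crosslinks fibrin, varied only from 118 to 178 CPM over the 9 libraries.

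The contact phase genes had the highest median log2 fold change with FGF19ΔKLB against vehicle, 1.0 over 5 genes, of which F11, Klkb1, Kng1 and Kng2 did not overlap with vehicle under TMM scaling (12.4% of all genes were above). Klkb1 overlapped with library totals and in FPKM. Kng1 and Kng2 encode kininogens, which carry prekallikrein and factor XI and release bradykinin. Kng2 had 626, 599 and 713 CPM with FGF19ΔKLB, 457, 176 and 214 CPM with FGF19WT and 266, 286 and 379.9 CPM in vehicle. All FGF19ΔKLB libraries were above all others, and FGF19WT library 1 was above vehicle. Kng2 rose 2.08-fold with FGF19ΔKLB over the 6 libraries (log2 fold change 1.05, 95% interval 0.67 to 1.44, adjusted p = 0.0326, edgeR), with an adjusted p of 3.43e-06 to 0.115 over 15 alternatives, under 0.05 in 9, and of 0.0542 with library totals. Over 9 libraries it stood at 1.06 (SE 0.35, adjusted p = 0.478) against vehicle, 1.2 (SE 0.35, adjusted p = 0.257) against FGF19WT, and with FGF19WT at −0.14 (SE 0.35, adjusted p = 0.849) against vehicle. Kng1 had 5472, 4259 and 6997 CPM with FGF19ΔKLB, 3352, 1321 and 1834 CPM with FGF19WT and 1882, 2712 and 3174 CPM in vehicle. It had the highest log2 fold change with FGF19ΔKLB against vehicle, 1.11 (SE 0.39, adjusted p = 0.495) over 9 libraries, and an adjusted p of 0.082 over 6. Transcripts of both genes share 91.1% of bases over 2256 aligned bases, so their separate levels depend on how the authors' counting split reads between them.

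F11 encodes factor XI, which factor XII and thrombin activate. It had 72.9, 63.9 and 104 CPM with FGF19ΔKLB, 83.3, 43.4 and 47.4 CPM with FGF19WT and 37.8, 50.6 and 32 CPM in vehicle, with every FGF19ΔKLB library above vehicle. Its log2 fold change was 1.0 (SE 0.31, adjusted p = 0.431) with FGF19ΔKLB and 0.53 (SE 0.3, adjusted p = 0.369) with FGF19WT against vehicle over 9 libraries, with an adjusted p of 0.0894 for FGF19ΔKLB over 6. Klkb1, its neighbour on chromosome 8 and the gene of plasma prekallikrein, had 202, 164 and 193 CPM with FGF19ΔKLB, 196, 92.2 and 127 CPM with FGF19WT and 163, 149.9 and 155 CPM in vehicle. F12, the protease that opens the contact phase, had 273, 279 and 356 CPM with FGF19ΔKLB, 313, 287 and 230.2 CPM with FGF19WT and 268, 371 and 295 CPM in vehicle, with all groups overlapping.

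The 3 fibrinolysis genes were higher with FGF19ΔKLB and lower with FGF19WT than in vehicle, with medians of 0.39 and −0.55 log2 units. Plasminogen (Plg) had 3749, 3538 and 3578 CPM with FGF19ΔKLB, 3556, 1203 and 1393 CPM with FGF19WT and 2142, 2613 and 2869.9 CPM in vehicle. FGF19ΔKLB and FGF19WT library 1 stood together above vehicle, and FGF19WT libraries 2 and 3 below it, though FGF19ΔKLB overlapped vehicle with library totals and in FPKM. Cpb2, which slows fibrinolysis by trimming fibrin, had 332, 386 and 391 CPM with FGF19ΔKLB, 323, 114 and 143 CPM with FGF19WT and 224, 273 and 356 CPM in vehicle. Hrg, a plasma protein that binds plasminogen and heparin, had 1563, 1633 and 1851 CPM with FGF19ΔKLB, 1529, 402 and 605 CPM with FGF19WT and 1041, 1236 and 1579 CPM in vehicle. edgeR called 0 of the 3 genes in each comparison, with an unadjusted p under 0.05 for 0, 0 and 1 over 9 libraries and 1, 0 and 0 over 6 for FGF19ΔKLB against vehicle, FGF19WT against vehicle and FGF19ΔKLB against FGF19WT. In the same order, 8.35%, 18.8% and 12.5% of all genes had such a p over 9 libraries, and 17.3%, 14.5% and 8.8% over 6.

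Other genes of the same pathways were measured beside the 38. Of 29 further complement genes past the filter, 20 were lower with FGF19ΔKLB and 24 lower with FGF19WT than in vehicle, with medians of −0.31 and −0.93, and edgeR called 0 of them in each comparison. An unadjusted p under 0.05 was found for 1, 6 and 5 over 9 libraries and 9, 5 and 3 over 6 for FGF19ΔKLB against vehicle, FGF19WT against vehicle and FGF19ΔKLB against FGF19WT. Many of these genes are made by macrophages, whose markers summed to 287 to 372 CPM with FGF19ΔKLB, 57.8 to 344 CPM with FGF19WT and 336 to 514 CPM in vehicle, and their part was not tested. C1qa, C1qb, C1qc and Vsig4 are in both the complement list and the marker list, so the marker sums are not independent of these genes. The highest log2 fold change with FGF19ΔKLB was that of Apcs, serum amyloid P, with 508, 988 and 565 CPM with FGF19ΔKLB, 276, 253 and 273 CPM with FGF19WT, and 123, 194 and 244 CPM in vehicle (adjusted p = 0.153 in edgeR over 9 libraries, 0.0542 over 6). Of 22 further clotting and fibrinolysis genes, edgeR called 0 in each comparison, with an unadjusted p under 0.05 for 2, 3 and 6 over 9 libraries and 8, 3 and 2 over 6 for FGF19ΔKLB against vehicle, FGF19WT against vehicle and FGF19ΔKLB against FGF19WT. Beside both lists, the shares of all genes with such a p were 8.35%, 18.8% and 12.5% over 9 libraries. Over 6 libraries they were 17.3%, 14.5% and 8.8%. Plat, the tissue plasminogen activator, had 0.689, 1.27 and 1.61 CPM with FGF19ΔKLB, 2.12, 159 and 129.8 CPM with FGF19WT, and 1.27, 1.02 and 1.68 CPM in vehicle (adjusted p = 0.125 for FGF19WT against vehicle in edgeR). Plat was thus high in FGF19WT libraries 2 and 3, where plasminogen was low. Of 11 genes of the vitamin K cycle and of factor secretion, 1 was called, Pcsk6, a protease that cuts proproteins, in the 6-library fit of FGF19ΔKLB against vehicle, where 1.68% of all genes were called. Pcsk6 fell with FGF19ΔKLB over the 6 libraries, with 86.2, 91.2 and 86.9 CPM, against 143, 123 and 143 CPM in vehicle (log2 fold change −0.63, adjusted p = 0.0428 in edgeR, and 0.274 over 9 libraries).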

How the data were processed

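Liver RNA-seq of 9 libraries was used, 3 each of FGF19ΔKLB, FGF19WT and vehicle. The deposited table holds estimated counts and FPKM values per gene that the authors computed. The submitters' processing notes name Bowtie 0.12.2, HISAT2 2.0 and StringTie 1.3.0 and the build mm8, while deposited positions match GENCODE M21 on GRCm38. The role of each tool, strand use and gene filters are not given in the sources used here. Counts are whole numbers, so no rounding was needed. In the deposited counts, values at multiples of 4 were 2.16 to 2.36 times as frequent as neighbouring low values, so counts divided by 4 were tried.

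One model was fitted to all genes with edgeR 4.0.16 in R 4.3.3 (filterByExpr, TMM, robust quasi-likelihood, group as the only term), and the 6 libraries of each pair were fitted alone. Genes were called at a Benjamini-Hochberg adjusted p under 0.05 over all genes tested. Intervals are 95% intervals from the fit. Alternatives were DESeq2 1.42.0, limma 3.58.1 on log2(FPKM + 1) or log2(FPKM + 0.1) for genes of at least 1 FPKM, other filters and scalings, a replicate block and leaving out libraries. The alternatives to the 6-library fit of FGF19ΔKLB against vehicle were chosen after the data were seen. The procedure was tested on simulated data. Transcripts were aligned with blastn 2.17.0. Motifs were searched only in the 250 bases before the RefSeq start, to keep out sequence transcribed from it. The windows of Fga, C9 and Kng2 still reach into the deposited genes.

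The members, gene lists and tests were chosen with earlier results of these data known. All 38 levels are given singly or by range. Fold changes with errors are given for genes called in any edgeR fit over 9 or 6 libraries and for the 4 largest rises and 4 largest falls per comparison over 9 libraries. Near copies and overlapping genes aside, genes named outside the 38 were called or among the 2 largest changes of their list. Not all such genes are named.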

Additional observations from a re-analysis of the deposited data

How the results depend on the processing

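For FGF19WT against vehicle, 0 genes were called over 9 libraries and in each alternative except DESeq2 and the fits that leave out a library. DESeq2 called 2, where 9.61% of all genes were called. With 1 library left out the count ranged 0 to 23, the highest without FGF19WT library 1, where 27.4% of all genes were called. The count of higher genes, 4, became 26 without FGF19WT libraries 2 and 3 and ranged 3 to 8 with 1 library left out. For FGF19ΔKLB against vehicle, 0 genes became 1 with DESeq2 (2.04% of all genes called) and 3 over the 6 libraries of the pair (1.68%). With 1 library left out of the 9 it was 0 to 2. For FGF19ΔKLB against FGF19WT, 0 genes became 3 with DESeq2 (4.6% of all genes called) and 0 to 28 with 1 library left out. The highest count was without FGF19WT library 1, where 20.2% of all genes were called. The median of 0.67 in this comparison became 0.082 without FGF19WT libraries 2 and 3. In the 6-library fit of FGF19ΔKLB against vehicle, 3 genes (1.68% of all genes called) became 1 with library totals (1.97%), 10 with DESeq2 (7.95%), 0 with a replicate block (0.594%) and 0 to 3 with 1 library left out. Same-numbered libraries deviated from their group means with correlations of −0.048 to 0.147. These values gave no sign of pairing by number, but with 3 libraries a group they cannot exclude it. With the replicate block over 9 libraries 0 genes were called in each comparison. The sign of some small log2 fold changes turned without 1 or 2 libraries. For FGF19WT against vehicle, F7 ranged −0.17 (without FGF19WT library 1) to 0.36 with 1 library left out. Kng2 ranged −0.68 to 0.11 with 1 library left out and was 0.56 without FGF19WT libraries 2 and 3. Pros1 ranged −0.12 to 0.24 and was −0.29 in the same settings. For FGF19ΔKLB against FGF19WT, Mbl1 ranged −0.15 to 0.13 and was 0.086, and C4bp became 0.43 without FGF19WT libraries 2 and 3. The cause was not tested in these cases. With 3 libraries a group, the spread of FGF19WT libraries limits each fit that holds them.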

Other observations

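Among 20 liver transcription factors and cytokine receptors known to act on these genes, edgeR called 0 in each comparison, with an unadjusted p under 0.05 for 3, 5 and 3 over 9 libraries and 6, 3 and 3 over 6 for FGF19ΔKLB against vehicle, FGF19WT against vehicle and FGF19ΔKLB against FGF19WT. In the same order, 8.35%, 18.8% and 12.5% of all genes had such a p over 9 libraries, and 17.3%, 14.5% and 8.8% over 6. Values are given for the 2 factors or receptors with the largest change in each comparison. Il1r1, the interleukin-1 receptor, had 18, 47.2 and 21.3 CPM with FGF19ΔKLB, 25.2, 216 and 289 CPM with FGF19WT, and 40, 22.3 and 123 CPM in vehicle. Nr1h4, which encodes the bile acid receptor FXR, had 123, 176 and 129.6 CPM with FGF19ΔKLB, 164, 36.2 and 45.8 CPM with FGF19WT, and 133, 192 and 156 CPM in vehicle. FGF19WT libraries 2 and 3 held the highest Il1r1 and the lowest Nr1h4 values of the 9 libraries. Onecut1, the factor HNF6, had 18.1, 7.52 and 20.5 CPM with FGF19ΔKLB, 6.36, 4.4 and 2.15 CPM with FGF19WT, and 6.6, 5.58 and 7.89 CPM in vehicle. Cebpb, a factor of the acute phase response, had 7.11, 17.6 and 12 CPM with FGF19ΔKLB, 20.4, 15.1 and 14.1 CPM with FGF19WT, and 22.2, 27.2 and 31.8 CPM in vehicle, so all 6 libraries from FGF19-treated mice were below vehicle.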
